A study of Homo sapiens with 12 samples.

Results

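The 10 genes described here encode receptors that steer B cells towards or away from chemical signals in lymphoid tissue, and the G-protein relay that holds them within the follicle: *CXCR4*, *CXCR5*, *CCR7*, *GPR183*, *S1PR1*, *S1PR2*, *S1PR4*, *P2RY8*, *GNA13* and *ARHGEF1*. They were chosen by name, as a functional group, from the 60707 genes of the count table, in which they take 11 entries because *P2RY8* is listed on both sex chromosomes. Of the 10 genes, 8 had enough reads to be tested. The data are RNA sequencing libraries, 12 in number, of Raji, a line from a human Burkitt lymphoma that resembles germinal centre B cells. The line carried an auxin-inducible degron for SMARCA4, an ATPase that moves nucleosomes as part of SWI/SNF. The 4 groups, each of 3 libraries at 24 h, were GFP_LOW cells given FX1, GFP_LOW cells given DMSO, GFP_HIGH cells given FX1 and GFP_HIGH cells given DMSO. FX1 is a compound that inhibits BCL6, a transcriptional repressor needed in germinal centre B cells, and DMSO is its vehicle. All 12 libraries carry the genotype label Smarca4+/+, and the labels do not give what GFP reports, how the gates were set, or the auxin dose.

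In germinal centres, CXCR4 draws B cells to CXCL12 in the dark zone and CXCR5 draws them to CXCL13 in the follicle and light zone, while CCR7 and GPR183 guide activated B cells towards T-zone chemokines and oxysterols at the follicle border. S1PR2 and P2RY8 act against migration: they signal through the G-protein subunit encoded by *GNA13* to the guanine nucleotide exchange factor encoded by *ARHGEF1*, which confines germinal centre B cells, and this branch is recurrently mutated in germinal centre lymphomas, Burkitt lymphoma included. S1PR1 promotes exit into circulation, and S1PR4 is a further receptor for sphingosine 1-phosphate on lymphocytes.

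The receptors *CXCR4*, *CXCR5* and *GPR183* stand for the 2 directions in which the group moved, and the sequence before their start sites is shown to set those starts in the genome. *CXCR4* had the largest rise with FX1 in GFP_LOW cells, and *CXCR5* and *GPR183* had the largest falls among the receptors in both gates. Each run is the 250 bases before the start site, 5′ to 3′ on the gene's strand, from RefSeq on GRCh38.p14. Capitals mark matches on either strand to CACCC, a short core of KLF-type sites, or to ACGTG, a hypoxia-response core.
CXCR4, minus strand, chr2:136118150-136118399: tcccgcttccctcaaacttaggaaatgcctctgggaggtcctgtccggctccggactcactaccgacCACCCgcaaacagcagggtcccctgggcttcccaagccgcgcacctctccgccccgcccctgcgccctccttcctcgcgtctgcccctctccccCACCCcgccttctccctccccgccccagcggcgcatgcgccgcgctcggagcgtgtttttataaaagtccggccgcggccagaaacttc
CXCR5, plus strand, chr11:118893142-118893391: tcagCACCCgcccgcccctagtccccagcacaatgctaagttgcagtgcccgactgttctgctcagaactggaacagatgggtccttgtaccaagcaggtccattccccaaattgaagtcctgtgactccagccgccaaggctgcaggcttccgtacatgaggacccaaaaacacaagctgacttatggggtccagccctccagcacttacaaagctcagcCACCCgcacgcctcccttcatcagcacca
GPR183, minus strand, chr13:99307400-99307649: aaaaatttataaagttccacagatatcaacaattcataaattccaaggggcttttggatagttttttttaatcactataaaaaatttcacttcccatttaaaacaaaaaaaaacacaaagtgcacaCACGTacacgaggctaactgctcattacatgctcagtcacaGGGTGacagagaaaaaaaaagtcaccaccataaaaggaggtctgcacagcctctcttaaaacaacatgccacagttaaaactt
The RefSeq start used for *CXCR5* lies inside the gene span of the count table, which begins at an earlier exon. RefSeq windows of 300 bases, which add 50 bases after the start, were found for 9 of the 10 genes, 15 windows in all, and none for *CCR7*. TTCNNNGAA, a core shared by BCL6 and STAT sites, was searched on both strands and occurred in 0 of the 15 windows, against 7.66% of all 35116 windows. GTAAACA, a forkhead core, was in 0 windows, against 3.42% of all. CACCC was in 12 of the 15 windows, and also in 59.9% of all windows. At least 1 window of each of the 9 genes held it, for *P2RY8* only after the start. Some of these genes have more than 1 window, and no share over all genes was taken. ACGTG was in the *GPR183* window alone among the 15, and in 21.4% of all. These letter matches describe the windows and do not show binding.

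Total counts per library lay between 20454028 and 42556661. The labels do not say if the replicates were grown apart, so the p-values reflect library-to-library spread alone, and that spread may be technical. It was small: the common biological coefficient of variation was 1.67%, and pairs of libraries within a group varied 1.67 to 1.94 times as much as random sampling of reads. *SMARCA4* RNA averaged 456 ± 4.04 CPM (counts per 1000000 counts; SD, n = 3) in GFP_LOW FX1, 395 ± 4.99 in GFP_LOW DMSO, 388 ± 2.54 in GFP_HIGH FX1 and 381 ± 3.77 in GFP_HIGH DMSO, which does not check a degron that removes protein. The B-cell markers *MS4A1*, *CD79A*, *CD79B*, *PAX5* and *CD22* were all expressed, with group means between 204 and 883 CPM. Sums over 9 T and NK cell markers lay at 2.52 to 7.54 CPM with *CD8A* at 0, over 6 myeloid markers at 2 to 6.39 CPM with *S100A8* at 0, and over 7 stromal, endothelial and epithelial markers at 8.79 to 17.8 CPM with *KRT18* and *CDH5* at 0. The highest myeloid sums, 5.99 to 6.39 CPM, were in GFP_LOW FX1, where *ITGAM* alone averaged 5.05 CPM. The stromal, endothelial and epithelial sums in that group were 16.1 to 17.8 CPM, and *COL1A1* alone averaged 16.3 CPM.

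Levels between genes were compared per length, as TPM (TMM-scaled CPM per length, times a common factor that brings the mean library total to 1000000). In GFP_LOW FX1 cells the order ran *CXCR4* (238 TPM), *S1PR2* (160), *CCR7* (124), *CXCR5* (107), *GNA13* (103), *ARHGEF1* (78.3), *S1PR4* (65.7) and *GPR183* (22.9), and the 3 libraries of each gene kept clear of those of its neighbour. In GFP_LOW DMSO cells *S1PR2* led (205 TPM), followed by *GNA13* (174), *CXCR5* (166), *CXCR4* (129), *CCR7* (94.2), *ARHGEF1* (49.1), *S1PR4* (47) and *GPR183* (42), and only the ranges of *ARHGEF1* and *S1PR4* overlapped. GFP_HIGH FX1 cells placed *GNA13* (139 TPM) and *CXCR4* (134) at the top with overlapping ranges, then *S1PR2* (123), *CCR7* (98.9), *CXCR5* (89.3), *ARHGEF1* (63.1), *S1PR4* (49) and *GPR183* (28.1). In GFP_HIGH DMSO cells *GNA13* led (176 TPM), before *S1PR2* (147), *CXCR5* (142), *CXCR4* (107), *CCR7* (63.3), *ARHGEF1* (47.9), *GPR183* (41.3) and *S1PR4* (37), with the ranges of *S1PR2* and *CXCR5*, and those of *GPR183* and *S1PR4*, overlapping. *CXCR4* thus held a higher place than *CXCR5* in both FX1 groups and a lower one in both DMSO groups. The places depend on the length given to each gene, here all its exons together. Per base of the longest transcript, 2 to 5 members of a group took another place, *ARHGEF1* moving up to the second in both FX1 groups, and the order of *CXCR4* and *CXCR5* was as above. As CPM, with no length, 4 to 6 members took another place and *CXCR4*, at 83.7 CPM, lay below *CXCR5*, at 108 CPM, in GFP_HIGH FX1. Against all tested genes, *CXCR4* in GFP_LOW FX1 cells had a level above 97.8% of them, and *GPR183* there had a level above 63.9%.

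The changes of *S1PR1* and *P2RY8* could not be followed. *S1PR1* (ENSG00000170989.10, hg38 chr1:101236865-101243713, plus strand) had 4, 1 and 0 counts in GFP_LOW FX1, 4, 0 and 0 in GFP_LOW DMSO, 1, 4 and 0 in GFP_HIGH FX1 and 0, 4 and 1 in GFP_HIGH DMSO. These lie around the limit of 3 counts that a count of 0 allows, equal to 0.0705 to 0.147 CPM, so no change was detectable at this depth. *P2RY8* (ENSG00000182162.11, hg38 chrX:1462581-1537185, minus strand) had 0 counts in all 12 libraries in both of its entries. Its 0 cannot be read as absence. Of 44 genes listed on both sex chromosomes, 38 had 0 counts throughout and none had more than 4, and broadly expressed genes such as *SLC25A6*, *GTPBP6* and *AKAP17A* were among those at 0.

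**Figure D1:**
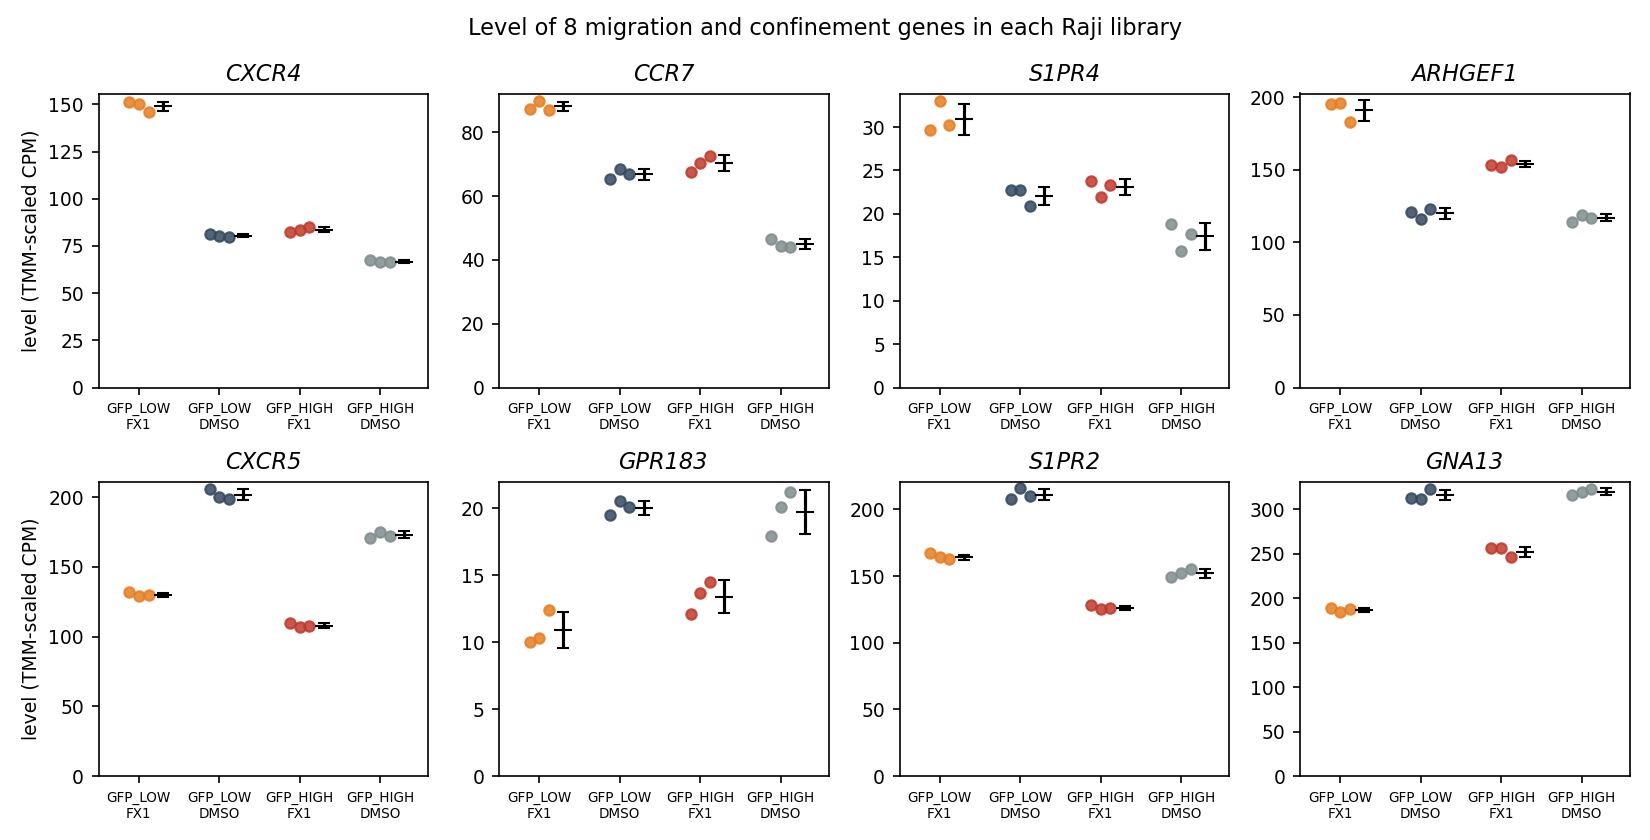
Level of the 8 tested genes in each library, in TMM-scaled CPM on linear axes from 0. Each dot is 1 library and the bar beside it is the mean with its SD (n = 3). The upper panels show *CXCR4*, *CCR7*, *S1PR4* and *ARHGEF1*, whose FX1 libraries lie above the DMSO libraries of the same gate, and the lower panels show *CXCR5*, *GPR183*, *S1PR2* and *GNA13*, whose FX1 libraries lie below them.

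FX1 was compared with DMSO within each gate to ask what BCL6 inhibition changed. In GFP_LOW cells 8 of the 8 tested genes were called, 4 higher and 4 lower, at an adjusted p under 0.05 by edgeR's quasi-likelihood test, where 68% of all 17859 tested genes were called (33.7% higher and 34.3% lower). In GFP_HIGH cells 8 of 8 were called as well, with the same 4 genes higher and the same 4 lower, against 68.4% of all genes (33.8% higher and 34.6% lower). The FX1 and DMSO libraries did not overlap for any of the 8 genes in either gate, as for 69.6% of all genes in GFP_LOW cells and 70.2% in GFP_HIGH cells. The number of calls therefore does not set the group apart. The median size of change was 0.65 (log2) in GFP_LOW cells, against 0.41 over all tested genes, and 0.41 in GFP_HIGH cells, against 0.41. None of the 8 changed 2-fold or more, as did 15.4% of all genes in GFP_LOW and 17% in GFP_HIGH cells. In RNA from bulk cells, fewer cells of a type and less RNA per cell cannot be told apart.

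Among the chemokine receptors, *CXCR4* and *CCR7* rose with FX1 and *CXCR5* fell. *CXCR4* (ENSG00000121966.7, hg38 chr2:136114349-136118149, minus strand) stood at 151, 150 and 146 CPM in GFP_LOW FX1 and at 81.2, 80.2 and 79.7 in GFP_LOW DMSO. In GFP_HIGH cells it stood at 82.6, 83.4 and 85.1 CPM with FX1 and at 67.5, 66.4 and 66.4 with DMSO. The GFP_LOW FX1 libraries stood far above the other 9, and the GFP_HIGH FX1 libraries were only a little above GFP_LOW DMSO. The log2 change with FX1 was 0.89 ± 0.028 (SE, adjusted p = 8.6e-88), or 1.85-fold, in GFP_LOW cells and 0.33 ± 0.031 (adjusted p = 3.7e-21) in GFP_HIGH cells.

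*CCR7* (ENSG00000126353.3, hg38 chr17:40553769-40565472, minus strand), the receptor for CCL19 and CCL21, had 87.4, 89.8 and 87.1 CPM in GFP_LOW FX1 and 65.2, 68.4 and 66.8 in GFP_LOW DMSO. GFP_HIGH cells had 67.6, 70.4 and 72.5 CPM with FX1 and 46.6, 44.3 and 43.9 with DMSO. GFP_HIGH FX1 and GFP_LOW DMSO libraries overlapped in level, with GFP_LOW FX1 above both and GFP_HIGH DMSO below both. Its log2 change with FX1 was 0.40 ± 0.033 in GFP_LOW cells (adjusted p = 3.6e-26) and 0.64 ± 0.036 in GFP_HIGH cells (adjusted p = 1.3e-44).

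*CXCR5* (ENSG00000160683.5, hg38 chr11:118883892-118897787, plus strand) had 132, 129 and 130 CPM in GFP_LOW FX1 and 206, 200 and 199 in GFP_LOW DMSO. In GFP_HIGH cells the values were 110, 107 and 108 CPM with FX1 and 171, 175 and 172 with DMSO. All 6 FX1 libraries were below all 6 DMSO libraries. The log2 change was -0.63 ± 0.022 in GFP_LOW cells (adjusted p = 1.6e-76) and -0.67 ± 0.023 in GFP_HIGH cells (adjusted p = 2.8e-78). Of the 4293 exon bases of *CXCR5*, 3913 also lie in exons of *BCL9L* on the opposite strand. *BCL9L* went the other way, at 171 ± 2.09 CPM in GFP_LOW FX1 against 75.3 ± 3.17 in GFP_LOW DMSO (log2 change 1.18 ± 0.027), and at 129 ± 0.779 in GFP_HIGH FX1 against 62.1 ± 3.48 in GFP_HIGH DMSO (1.06 ± 0.029). Strand use in the authors' counting is not given in the sources used here. Of 771 genes wholly covered by opposite-strand exons, 37.2% were at 0 counts, 9 (1.17%) had at least 1000 over all libraries and the largest had 11929. Of 1146 genes wholly covered by same-strand exons, 92.3% were at 0 and none passed 301. Reads were thus assigned to many genes covered on the opposite strand, mostly below 1000 counts, and to few covered on the same strand. The split of reads between *CXCR5* and *BCL9L* was not tested.

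*GPR183* (ENSG00000169508.7, hg38 chr13:99294539-99307399, minus strand), the receptor for oxysterols that is known to be kept low in germinal centre B cells, had 10, 10.3 and 12.4 CPM in GFP_LOW FX1 and 19.5, 20.5 and 20.1 in GFP_LOW DMSO. GFP_HIGH cells had 12.1, 13.7 and 14.5 CPM with FX1 and 17.9, 20.1 and 21.2 with DMSO. The FX1 libraries of the 2 gates overlapped, and so did the DMSO libraries. *GPR183* fell by 0.90 on the log2 scale in GFP_LOW cells (SE 0.073, adjusted p = 8.7e-27) and by 0.56 in GFP_HIGH cells (SE 0.07, adjusted p = 2.1e-13). The gene lies within the span of *UBAC2* on the opposite strand and shares 0 exon bases with it.

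The 2 tested sphingosine 1-phosphate receptors moved apart. *S1PR2* (ENSG00000267534.4, hg38 chr19:10221433-10231331, minus strand) had 167, 164 and 163 CPM in GFP_LOW FX1 and 208, 216 and 210 in GFP_LOW DMSO, with 128, 125 and 126 in GFP_HIGH FX1 and 149, 152 and 155 in GFP_HIGH DMSO. Each group kept its own range, with GFP_LOW DMSO the highest. *S1PR2* fell by 0.36 in GFP_LOW cells (log2, SE 0.021, adjusted p = 7.1e-42) and by 0.26 in GFP_HIGH cells (SE 0.023, adjusted p = 5.8e-24). It shares 83 of its 3643 exon bases with *DNMT1* on the same strand, which had log2 changes of -0.54 ± 0.014 and -0.59 ± 0.015 in the same gates.

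*S1PR4* (ENSG00000125910.6, hg38 chr19:3172346-3180332, plus strand) had 29.7, 33 and 30.2 CPM in GFP_LOW FX1 and 22.7, 22.7 and 20.9 in GFP_LOW DMSO. GFP_HIGH cells had 23.8, 22 and 23.3 CPM with FX1 and 18.8, 15.7 and 17.7 with DMSO. GFP_LOW FX1 was highest and GFP_HIGH DMSO lowest, with the other 2 groups overlapping. The log2 change was 0.48 ± 0.056 in GFP_LOW cells (adjusted p = 6.1e-15) and 0.42 ± 0.062 in GFP_HIGH cells (adjusted p = 2.4e-10). It did not hold after removal of a smooth dependence on GC content and transcript length, removed together, from each library. The change was then -0.02 ± 0.056 in GFP_LOW and 0.11 ± 0.062 in GFP_HIGH cells, and neither was called.

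In the confinement relay the G-protein subunit fell and the exchange factor rose. *GNA13* (ENSG00000120063.10, hg38 chr17:65009289-65056740, minus strand) had 189, 184 and 188 CPM in GFP_LOW FX1 and 313, 312 and 323 in GFP_LOW DMSO. In GFP_HIGH cells it had 256, 256 and 246 CPM with FX1 and 316, 320 and 323 with DMSO. The DMSO libraries of the 2 gates overlapped, and both FX1 groups were below them, GFP_LOW the further. *GNA13* fell by 0.75 on the log2 scale in GFP_LOW cells (SE 0.018, adjusted p = 8.3e-110) and by 0.34 in GFP_HIGH cells (SE 0.018, adjusted p = 4.3e-50).

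*ARHGEF1* (ENSG00000076928.18, hg38 chr19:41883173-41930150, plus strand) had 195, 196 and 183 CPM in GFP_LOW FX1 and 121, 116 and 123 in GFP_LOW DMSO, with 153, 152 and 157 in GFP_HIGH FX1 and 114, 119 and 117 in GFP_HIGH DMSO. Its DMSO libraries overlapped between gates, and both FX1 groups were above them. The log2 change was 0.68 ± 0.024 in GFP_LOW cells (adjusted p = 1.4e-77) and 0.40 ± 0.024 in GFP_HIGH cells (adjusted p = 2.3e-39). With the GC content and length trend removed, it was 0.22 ± 0.023 in GFP_LOW and 0.12 ± 0.024 in GFP_HIGH cells, still called.

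**Figure D2:**
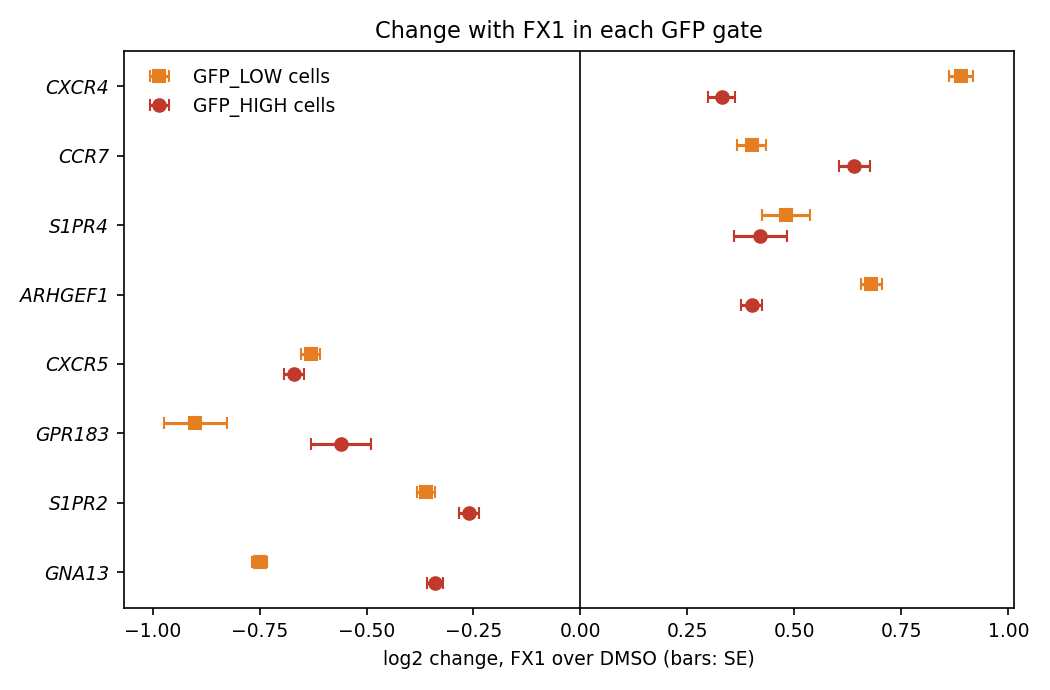
Log2 change with FX1 over DMSO in GFP_LOW cells (squares) and GFP_HIGH cells (circles), with bars for the SE. *CXCR4*, *CCR7*, *S1PR4* and *ARHGEF1* lie to the right of 0 in both gates and *CXCR5*, *GPR183*, *S1PR2* and *GNA13* to the left, and the gates are furthest apart for *CXCR4* (0.89 and 0.33).

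Marker levels differed between FX1 and DMSO as well. Among the B-cell markers, *MS4A1* averaged 396 CPM in GFP_LOW FX1, against 604 in GFP_LOW DMSO, and 730 in GFP_HIGH FX1, against 883 in GFP_HIGH DMSO. *CD22* averaged 353 CPM in GFP_LOW FX1, against 770 in GFP_LOW DMSO, and 434 in GFP_HIGH FX1, against 866 in GFP_HIGH DMSO. The group means of *CD79A*, *CD79B* and *PAX5* lay between 204 and 359 CPM, and *CD79B* was higher in FX1 in both gates, at 350 CPM in GFP_LOW FX1, against 262 in GFP_LOW DMSO, and 267 in GFP_HIGH FX1, against 204 in GFP_HIGH DMSO. The germinal centre list of 6 markers, which includes *S1PR2* itself, summed to 714 to 721 CPM in GFP_LOW FX1, against 1040 in GFP_LOW DMSO, and to 902 to 906 in GFP_HIGH FX1, against 1190 to 1210 in GFP_HIGH DMSO. The part of these markers in the changes of the migration genes was not tested.

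The gates were compared within each treatment to ask how GFP_LOW cells differed from GFP_HIGH cells. These comparisons use the same libraries as the FX1 comparisons. Under FX1, 8 of 8 genes were called, 6 higher and 2 lower in GFP_LOW cells, where 56.9% of all tested genes were called (30.2% higher and 26.7% lower), and the groups did not overlap for 7 genes, as for 61.1% of all. Under DMSO, 5 of 8 were called, all higher in GFP_LOW cells, where 46.1% of all were called (21.7% higher and 24.4% lower), and the groups did not overlap for those 5, as for 51.6% of all. At 2-fold or more, 0 of the 8 genes were called in each, against 4.97% of all under FX1 and 3.3% under DMSO. The median change of the 8 genes was 0.32 under FX1, against 0.08 over all tested genes, and 0.25 under DMSO, against 0.03. These calls and medians are from the counts as deposited. With the GC content and length trend removed, 5 of the 8 genes were called under FX1. *CXCR4*, *CCR7* and *S1PR2* were then higher in GFP_LOW cells, and *GNA13* and *ARHGEF1* lower.

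*CXCR4* was 0.83 ± 0.027 (log2) higher in GFP_LOW than in GFP_HIGH cells under FX1 (adjusted p = 2e-84) and 0.27 ± 0.032 higher under DMSO (adjusted p = 2.2e-14), so that the 12 libraries fell into separate ranges by gate within each treatment. *CCR7* was 0.33 ± 0.032 higher under FX1 (adjusted p = 2.5e-20) and 0.58 ± 0.037 higher under DMSO (adjusted p = 3.6e-36). *S1PR2* was higher by 0.38 ± 0.022 under FX1 (adjusted p = 1.3e-42) and by 0.48 ± 0.022 under DMSO (adjusted p = 2.1e-56). These 3 genes stayed called and higher in GFP_LOW cells with the GC content and length trend removed, at 0.98, 0.16 and 0.13 under FX1 and 0.37, 0.49 and 0.35 under DMSO.

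For the other genes the gate difference depended on that trend, on the treatment, or on both. *CXCR5* was 0.27 ± 0.024 higher in GFP_LOW cells under FX1 and 0.22 ± 0.022 higher under DMSO, but -0.03 ± 0.023 and 0.07 ± 0.022 with the trend removed. *S1PR4* was 0.42 ± 0.054 higher under FX1 and 0.36 ± 0.064 higher under DMSO, but -0.09 ± 0.054 and 0.04 ± 0.064 with the trend removed, neither called. *ARHGEF1* was 0.32 ± 0.022 higher under FX1 and at 0.03 ± 0.026 under DMSO (adjusted p = 0.3), and the trend's removal turned these to -0.10 ± 0.022 and -0.20 ± 0.025, both called.

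*GNA13* was lower in GFP_LOW cells under FX1, at -0.43 ± 0.018 (adjusted p = 5.9e-63), and at -0.02 ± 0.017 under DMSO (adjusted p = 0.44). With the trend removed it was -0.23 ± 0.018 under FX1 and 0.10 ± 0.017 under DMSO, both called. *GPR183* was at -0.32 ± 0.076 under FX1 (adjusted p = 9.8e-05), with overlapping libraries, and at 0.02 ± 0.068 under DMSO (adjusted p = 0.83). The trend's removal gave 0.02 ± 0.076, not called, and 0.17 ± 0.068, called.

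**Figure D3:**
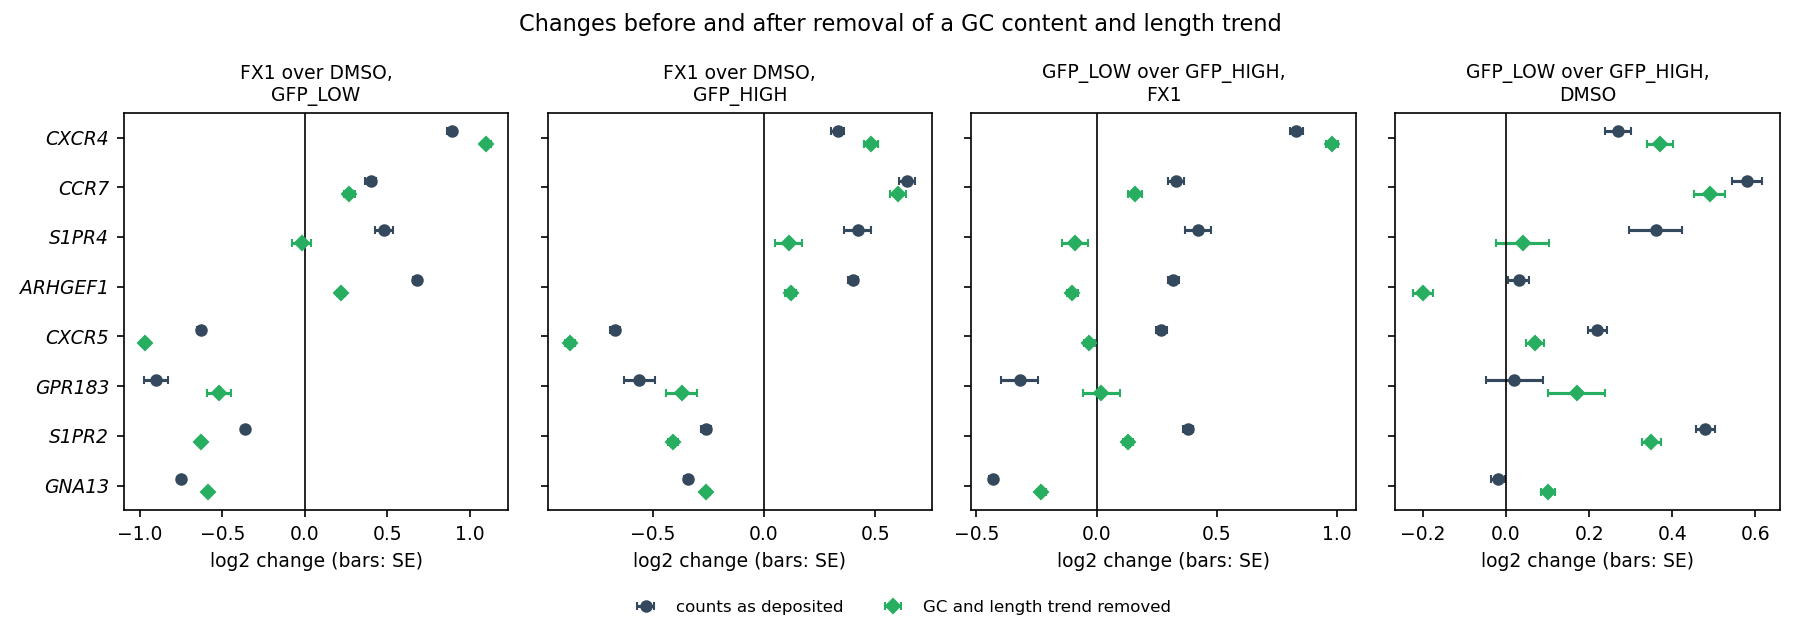
Log2 changes of the 8 tested genes from the counts as deposited (circles) and after the GC content and length trend was removed (diamonds), with bars for the SE. The panels, from left, show FX1 over DMSO in GFP_LOW and in GFP_HIGH cells, and GFP_LOW over GFP_HIGH under FX1 and under DMSO. *CXCR4* moves further from 0 in all 4 panels, while *S1PR4* (transcript GC 67.9%) moves towards 0 and *ARHGEF1* (63.6%) crosses 0 in both gate comparisons.

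The members spanned a wide range of base composition. The GC content of the longest transcript was 67.9% for *S1PR4*, 63.6% for *ARHGEF1*, 58.2% for *CXCR5*, 57% for *S1PR2*, 55% for *CCR7*, 43.9% for *CXCR4*, 40.5% for *GNA13* and 37.9% for *GPR183*, against a median of 47.6% over tested genes. Over the 10505 genes whose log2 CPM averaged at least 2, the change rose with GC content, with a Spearman rank correlation of 0.496 for FX1 in GFP_LOW cells, 0.292 for FX1 in GFP_HIGH cells, 0.683 for GFP_LOW over GFP_HIGH cells under FX1 and 0.515 under DMSO. These are correlations across genes, which are not independent replicates. *CXCR5* and *S1PR2* fell with FX1 despite a GC content above the median, and with the trend removed their falls were larger, -0.97 and -0.63 in GFP_LOW cells and -0.87 and -0.41 in GFP_HIGH cells. *CXCR4* rose with a GC content below the median and was then at 1.10 and 0.48. *CCR7* was at 0.27 and 0.60, *GNA13* at -0.59 and -0.26, and *GPR183* at -0.52 and -0.37, all still called.

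The response to FX1 differed between the gates for 6 of the 8 genes, upwards for 2 and downwards for 4, where 31.3% of all tested genes were called (14.8% upwards and 16.5% downwards). By 2-fold or more, 0 of the 8 were called, against 2.39% of all. The difference, the log2 change in GFP_LOW cells minus that in GFP_HIGH cells, was 0.56 ± 0.042 for *CXCR4* (adjusted p = 1.2e-29) and 0.28 ± 0.034 for *ARHGEF1* (adjusted p = 1.9e-13), whose rises were larger in GFP_LOW cells. It was -0.41 ± 0.025 for *GNA13* (adjusted p = 5.9e-39), -0.34 ± 0.1 for *GPR183* (adjusted p = 0.0045) and -0.09 ± 0.031 for *S1PR2* (adjusted p = 0.011), whose falls were larger there. For *CCR7* it was -0.25 ± 0.049 (adjusted p = 8.3e-06), a smaller rise in GFP_LOW cells. *CXCR5*, at 0.04 ± 0.032 (adjusted p = 0.33), and *S1PR4*, at 0.06 ± 0.084 (adjusted p = 0.66), were not called. With the trend removed the difference was 0.62 for *CXCR4*, 0.11 for *ARHGEF1*, -0.33 for *GNA13*, -0.33 for *CCR7* and -0.22 for *S1PR2*, all called, while *GPR183*, at -0.15, was not and *CXCR5*, at -0.10, was. The calls for *GPR183* and *S1PR2* rested on single libraries: without GFP_LOW FX1 replicate 1 the *GPR183* difference was -0.27 and without GFP_LOW DMSO replicate 2 that of *S1PR2* was -0.08, neither called.

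Ratios within a library set these opposite movements side by side, per length. The *CXCR4* to *CXCR5* ratio was 2.22, 2.25 and 2.19 in GFP_LOW FX1, against 0.766, 0.778 and 0.778 in GFP_LOW DMSO. It was 1.46, 1.51 and 1.53 in GFP_HIGH FX1, against 0.769, 0.736 and 0.749 in GFP_HIGH DMSO. The ratio was thus above 1 in all 6 FX1 libraries and below 1 in all 6 DMSO libraries, and the DMSO libraries of the 2 gates overlapped. Per base of the longest transcript it was likewise 2.67 in GFP_LOW FX1 against 0.931 in GFP_LOW DMSO, and 1.81 in GFP_HIGH FX1 against 0.904 in GFP_HIGH DMSO. As CPM, with no length, it was 1.14 in GFP_LOW FX1 against 0.398 in GFP_LOW DMSO, and 0.772 in GFP_HIGH FX1 against 0.386 in GFP_HIGH DMSO.

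The *CCR7* to *CXCR5* ratio was likewise above 1 in the 6 FX1 libraries, at 1.16 ± 0.0294 (SD, n = 3) in GFP_LOW FX1 against 0.567 ± 0.0227 in GFP_LOW DMSO, and at 1.11 ± 0.0539 in GFP_HIGH FX1 against 0.445 ± 0.0197 in GFP_HIGH DMSO. It was above 1 with FX1 per base of the longest transcript too, but as CPM it was 0.675 in GFP_LOW FX1 against 0.331 in GFP_LOW DMSO, and 0.648 in GFP_HIGH FX1 against 0.26 in GFP_HIGH DMSO. For *ARHGEF1* to *GNA13* it was 0.762 ± 0.0354 in GFP_LOW FX1 against 0.283 ± 0.00587 in GFP_LOW DMSO, and 0.455 ± 0.017 in GFP_HIGH FX1 against 0.273 ± 0.00443 in GFP_HIGH DMSO. With these lengths *GNA13* RNA exceeded *ARHGEF1* RNA in every library, but the order in GFP_LOW FX1 depended on the length used. Per base of the longest transcript, 3439 bases for *ARHGEF1* against 8624 over all its exons, the ratio was 1.46 ± 0.068 in GFP_LOW FX1 against 0.543 ± 0.0113 in GFP_LOW DMSO, and 0.874 ± 0.0327 in GFP_HIGH FX1 against 0.523 ± 0.00849 in GFP_HIGH DMSO. As CPM it was 1.02 ± 0.0475 in GFP_LOW FX1 against 0.38 ± 0.00787 in GFP_LOW DMSO. On each of these scales the ratio was higher with FX1 in both gates. *S1PR2* stood at 7.03 ± 0.867 times the level of *GPR183* in GFP_LOW FX1 against 4.88 ± 0.0442 in GFP_LOW DMSO, and at 4.38 ± 0.465 in GFP_HIGH FX1 against 3.58 ± 0.241 in GFP_HIGH DMSO. Against *S1PR4* it stood at 2.43 ± 0.147 in GFP_LOW FX1 against 4.36 ± 0.211 in GFP_LOW DMSO, and at 2.5 ± 0.0682 in GFP_HIGH FX1 against 4 ± 0.398 in GFP_HIGH DMSO. None of these ratios has the GC content and length trend removed. With it removed, *S1PR2* changed with FX1 by -0.63 and *GPR183* by -0.52 in GFP_LOW cells, and by -0.41 and -0.37 in GFP_HIGH cells. *S1PR2* then no longer fell less than *GPR183*. *ARHGEF1* and *GNA13* still moved apart, but less, at 0.22 and -0.59 in GFP_LOW and 0.12 and -0.26 in GFP_HIGH cells.

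**Figure D4:**
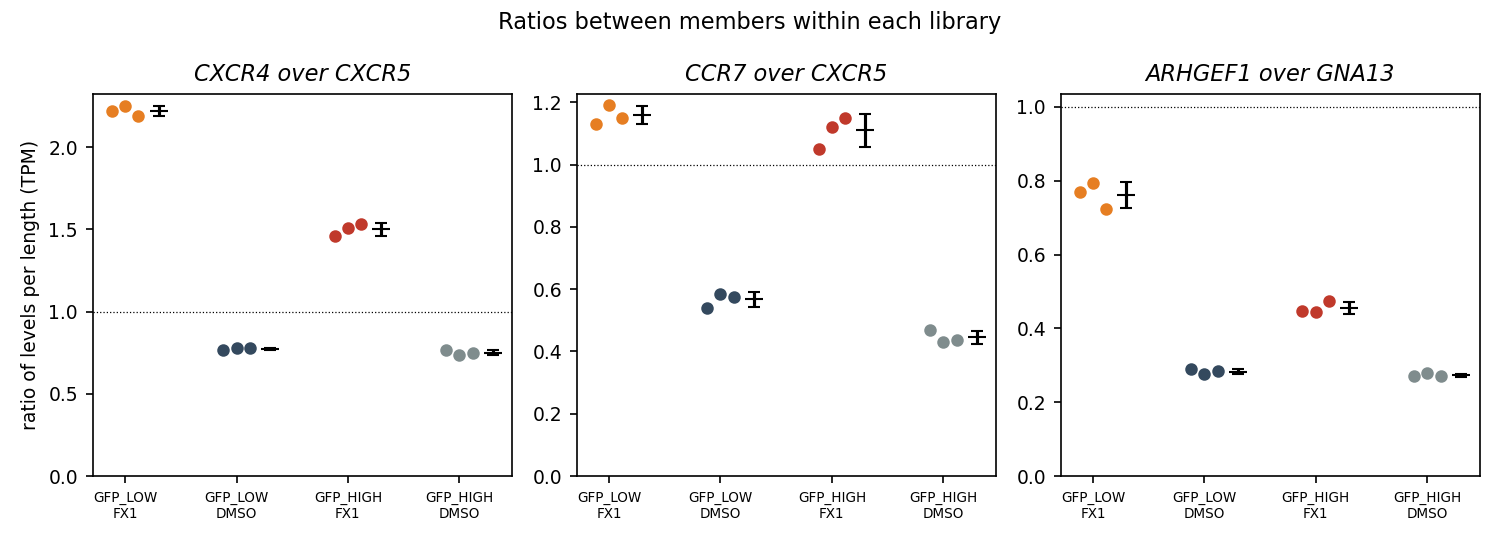
Ratio of levels per length (TPM) of *CXCR4* over *CXCR5*, *CCR7* over *CXCR5* and *ARHGEF1* over *GNA13* in each library, on linear axes from 0, with the mean and SD (n = 3) beside the dots and a dotted line at 1. Both chemokine receptor ratios exceed 1 in the FX1 libraries and stay below 1 in the DMSO libraries, and the *ARHGEF1* to *GNA13* ratio is highest in GFP_LOW FX1 (0.762 with the deposited lengths, 1.46 per base of the longest transcript).

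Genes around the members were followed in 6 lists of 107 genes, 80 of them tested. Of these 80, 33 rose and 38 fell in GFP_LOW cells, 88.8% called where 68% of all tested genes were (33.7% higher and 34.3% lower). In GFP_HIGH cells 34 rose and 31 fell, 81.2% called where 68.4% of all were (33.8% higher and 34.6% lower). Of 11 tested receptors of B-cell trafficking, 5 rose and 4 fell with FX1 in GFP_LOW cells, and 5 rose and 2 fell in GFP_HIGH cells, or 81.8% and 63.6% called, one share above that over all genes and one below it. *PTGER4*, a prostaglandin E2 receptor, rose by 0.95 ± 0.046 in GFP_LOW and 1.26 ± 0.045 in GFP_HIGH cells, and *P2RY10*, a lysophosphatidylserine receptor, by 0.35 ± 0.045 and 0.82 ± 0.042. *ACKR3*, which scavenges CXCL12, was lower with FX1 in GFP_LOW cells, at -0.29 ± 0.039, and higher in GFP_HIGH cells, at 0.45 ± 0.038.

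Of 10 tested genes for ligands and their makers or removers, 4 rose and 3 fell in GFP_LOW cells and 5 rose and 1 fell in GFP_HIGH cells, 70% and 60% called against 68% and 68.4% of all tested genes. Among the enzymes that act on the ligand of the S1PR family, the sphingosine kinase gene *SPHK2* rose by 0.84 ± 0.048 and 0.52 ± 0.055 and the sphingosine 1-phosphate lyase gene *SGPL1* by 0.78 ± 0.043 and 0.86 ± 0.044 in GFP_LOW and GFP_HIGH cells. The sphingosine 1-phosphate phosphatase gene *SGPP2* changed by -0.36 ± 0.056 in GFP_LOW cells and was at 0.02 ± 0.051 in GFP_HIGH cells, not called. The ligands CXCL12, CXCL13, CCL19 and CCL21 are not among the tested genes.

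In the signalling branch below *GNA13*, 4 rose and 5 fell of 11 tested in each gate, 81.8% called against 68% and 68.4% of all tested genes. The close relatives of the 2 relay members, the G-protein subunit gene *GNA12* and the exchange factor gene *ARHGEF12*, rose by 0.54 ± 0.024 and 0.49 ± 0.029 in GFP_LOW cells and by 0.80 ± 0.025 and 0.88 ± 0.03 in GFP_HIGH cells, so that *GNA12* and *GNA13* moved in opposite directions. *ARHGAP1*, a GTPase-activating protein gene, rose by 0.76 ± 0.04 and 0.89 ± 0.044, and the myosin light chain gene *MYL12A* changed by -0.52 ± 0.064 and -0.34 ± 0.057, though its close copy *MYL12B* may share its reads.

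Of 18 tested inhibitory G-protein and desensitisation genes, 8 rose and 10 fell in GFP_LOW cells and 6 rose and 9 fell in GFP_HIGH cells, 100% and 83.3% called against 68% and 68.4% of all. *RGS13*, a germinal centre regulator that dampens chemokine receptor signalling, had the largest change, to 72.8 ± 2.47 CPM in GFP_LOW FX1 against 299 ± 4.44 in GFP_LOW DMSO (log2 change -2.03 ± 0.021), and to 173 ± 3.89 in GFP_HIGH FX1 against 402 ± 3.13 in GFP_HIGH DMSO (-1.22 ± 0.018). *CD69*, which binds S1PR1 and removes it from the cell surface, had 17.9 ± 0.0526 CPM in GFP_LOW FX1 against 41.9 ± 1.25 in GFP_LOW DMSO (-1.22 ± 0.05). In GFP_HIGH cells it changed by -0.13 ± 0.042, which was 0.06 and not called with the GC content and length trend removed, and -0.09 and not called without GFP_HIGH DMSO replicate 1.

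Of 21 tested motility and adhesion genes, 8 rose and 13 fell in GFP_LOW cells and 10 rose and 11 fell in GFP_HIGH cells, so that each was called in both gates, against 68% and 68.4% of all. The integrin LFA-1 subunit gene *ITGAL* changed by -0.53 ± 0.036 and -0.92 ± 0.035, while the gene of its ligand, *ICAM1*, rose by 0.45 ± 0.021 and 0.77 ± 0.02. *RAPGEF1*, an activator of RAP1, rose by 0.83 ± 0.017 and 0.82 ± 0.018, and *RAP1A* itself changed by -0.82 ± 0.03 and -0.24 ± 0.028. Of 9 tested transcription factors tied to these receptors in lymphocytes, 4 rose and 3 fell in each gate (77.8% called, against 68% and 68.4% of all), *BCL6* among the fallers at -0.64 and -1.01. The list medians lay between -0.19 and 0.07 in GFP_LOW cells and between -0.06 and 0.24 in GFP_HIGH cells, against -0.01 over all tested genes in each.

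The expressed protein-coding gene whose log2 CPM followed each member most closely over the 12 libraries was sought among 9522 genes. The closest were *BMF* for *CXCR4* (Pearson's r = 0.996), *MYO1G* for *CXCR5* (0.997), *EHD1* for *CCR7* (0.993), *DENND4A* for *GPR183* (0.973), *FASN* for *S1PR2* (0.995), *NAT9* for *S1PR4* (0.986), *PIK3C2A* for *GNA13* (0.998) and *TMBIM1* for *ARHGEF1* (0.996). The 12 points form 4 groups of libraries that share treatment and gate, so these values describe the group means more than single libraries. *MYO1G* changed more than *CXCR5*, by -1.15 in GFP_LOW and -1.24 in GFP_HIGH cells, and *BMF* changed by 0.98 and 0.41, against 0.89 and 0.33 for *CXCR4*.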

How the data were processed

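Libraries were made with a KAPA kit that removes ribosomal RNA, per the labels' protocols. The submitters' processing notes name FastQC, STAR, featureCounts (Subread), R 4.2.1 and the build hg38. Other versions, the annotation release and the strand setting are not given in the sources used here. The authors deposited unnormalized read counts for each gene, summed over its exons, per the file headers. Of 60710 lines, 3 that formed a broken record were left out, and 60506 of the 60707 genes (99.7%) were given a symbol. Library totals ranged from 20454028 to 42556661, and limits for a count of 0 cover counting error only, because without molecular identifiers PCR copies cannot be separated from molecules.

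The test was edgeR 4.0.16 (R 4.3.3) on these counts: filterByExpr, TMM scaling and a robust quasi-likelihood fit with 1 coefficient per group over all 12 libraries, leaving 8 residual degrees of freedom. P-values were adjusted by Benjamini-Hochberg over all 17859 genes tested, with a threshold of 0.05, in 5 comparisons: FX1 against DMSO in each gate, GFP_LOW against GFP_HIGH under each treatment, and the difference between gates in the FX1 effect. Levels are TMM-scaled CPM, or TPM from the deposited gene lengths where genes are compared, with CPM alone, or CPM per base of the longest transcript, as alternatives. The second, and both for ratios, were chosen after seeing the data. Replicate numbers did not pair libraries: over 18 same-numbered pairs the correlation of deviations from group means lay between -0.037 and 0.0177, none above 0.1. Alternatives were DESeq2 1.42.0, DESeq2's size factors, no low-count filter or at least 50 counts in 3 libraries, only the compared groups, the replicate block, a 1.5-fold floor (glmTreat), removal of mitochondrial genes together with any gene above 1% of a library, and leaving out each library. A further alternative removed a smooth trend on GC content and length per library (mgcv 1.9.3), available for 17557 genes (98.3%).

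The members and lists were chosen with earlier results of these data known. All members are named. From each list, up to 3 called genes per FX1 comparison could be named, those with the largest changes among genes averaging 2 or more in log2 CPM, as could the closest-correlated gene of each member. On simulated data for 17394 genes, 200 genes were changed, in the GFP_LOW FX1 libraries alone. Changes of 1.5-fold were recovered in 93.9% of 66 genes for FX1 in GFP_LOW cells, 92.4% for the gates under FX1 and 86.4% for the difference. At 1.2-fold the shares were 80.3%, 80.3% and 66.7%. Unchanged genes called numbered 13, 17 and 10. Far more genes were called in the real data, so these shares need not hold there.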

Additional observations from a re-analysis of the deposited data

Results flagged for a closer look

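The effect of FX1 differed between the gates, by a test of the difference itself in edgeR, for 6 of the 8 tested migration genes and 19 of the named genes around them. Differences are log2 changes with FX1 in GFP_LOW cells minus those in GFP_HIGH cells. Among the members they were 0.56 for *CXCR4* (log2 change 0.89 in GFP_LOW and 0.33 in GFP_HIGH cells), 0.28 for *ARHGEF1* (0.68 and 0.40), -0.09 for *S1PR2* (-0.36 and -0.26), -0.25 for *CCR7* (0.40 and 0.64), -0.34 for *GPR183* (-0.90 and -0.56) and -0.41 for *GNA13* (-0.75 and -0.34).

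Around the members, *ACKR3* moved in opposite directions in the gates, at -0.29 in GFP_LOW and 0.45 in GFP_HIGH cells, a difference of -0.75. The largest differences among the named genes were -1.09 for *CD69* (-1.22 and -0.13) and -0.81 for *RGS13* (-2.03 and -1.22). Other receptors differed by -0.47 (*P2RY10*) and -0.31 (*PTGER4*). Sphingolipid enzymes differed by 0.31 (*SPHK2*) and -0.37 (*SGPP2*), and *SPHK2*, at 0.14, was not called with the GC content and length trend removed. In the branch below *GNA13*, *ARHGEF12* differed by -0.39, and *GNA12*, the close relative of *GNA13*, by -0.26. Regulators of G-protein signalling differed by 0.31 (*RGS14*), 0.22 (*RGS16*) and 0.22 (*RGS2*, adjusted p = 0.04 in edgeR). With that trend removed *RGS14* was at 0.15, without GFP_HIGH DMSO replicate 3 *RGS16* was at 0.13, and neither was called. *RGS2* lost its call in DESeq2 (adjusted p = 0.091), with DESeq2's size factors, with no low-count filter, without mitochondrial and dominant genes, and without 9 of the 12 libraries in turn, at 0.15 without GFP_HIGH DMSO replicate 1 and 0.16 without replicate 3. Motility and adhesion genes differed by -0.58 (*RAP1A*), 0.39 (*ITGAL*), -0.32 (*ICAM1*) and -0.23 (*DOCK8*). The transcription factor genes differed by 0.49 (*BACH2*), 0.36 (*BCL6*) and -0.29 (*EBF1*), and without GFP_HIGH DMSO replicate 1 that of *BACH2* was 0.33 and not called.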

How the results depend on the processing

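Of 680 repeats of the 40 member results under other settings, 625 counted as the same, 37 lost the call, 2 gained one and 16 turned. Of 1378 repeats for the named genes around them, 1295 counted as the same, 62 lost the call, 17 gained one and 4 turned. A turn was counted only where the result was called in either setting, so a change of sign between uncalled values counted as the same. The *S1PR4* difference was such a case, at 0.06 and, with the GC content and length trend removed, at -0.12. Against a 1.5-fold floor, 3606 genes and 5 members (*CXCR4*, *CXCR5*, *GPR183*, *GNA13* and *ARHGEF1*) were called for FX1 in GFP_LOW cells, 3674 and 1 (*CXCR5*) for FX1 in GFP_HIGH cells, 728 and 1 (*CXCR4*) for the gates under FX1, 199 and 0 for the gates under DMSO, and 151 and 0 for the difference between gates in the FX1 effect. With the GC content and length trend removed, 5 members were called for the gates under FX1, with or without the replicate block. The values that turned with the trend removed were -0.02 for *S1PR4* with FX1 in GFP_LOW cells; -0.03, 0.02 (0.04 with the block), -0.09 and -0.10 for *CXCR5*, *GPR183*, *S1PR4* and *ARHGEF1* between gates under FX1; 0.10 and -0.20 for *GNA13* and *ARHGEF1* between gates under DMSO; -0.10 for the *CXCR5* difference; 0.06 for *CD69* with FX1 in GFP_HIGH cells; and -0.14 for the *RAPGEF1* difference. The cause was not tested.

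Leaving out 1 library at a time gave 11440 to 11886 genes and 8 members for FX1 in GFP_LOW cells, 11475 to 11801 and 8 for FX1 in GFP_HIGH cells, 9387 to 9794 and 8 for the gates under FX1, 7451 to 7763 and 5 for the gates under DMSO, and 5167 to 5432 and 5 to 6 for the difference. The replicate block changed no member's call: it gave 12101 and 12184 genes for FX1 in GFP_LOW and GFP_HIGH cells, 10111 and 8213 for the gates under FX1 and DMSO, and 5536 for the difference, and 1 of 12 libraries correlated best with its own number. The *S1PR2* difference, -0.09, was -0.07 and not called with the filter of at least 50 counts. Depth limits *S1PR1*, and the counting of genes listed on both sex chromosomes limits *P2RY8*.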
